A study of Mus musculus with 24 samples.

Results

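The motor neuron identity genes Mnx1, Isl1, Isl2, Lhx3, Lhx4, Foxp1, Aldh1a2 and Etv4 were measured in ribosome-associated mRNA of the adult mouse spinal cord. These 8 genes, of 38924 listed in every file, were taken by name as factors known from motor neuron development. The pulldowns used RiboTag, in which Cre makes the ribosomal protein gene Rpl22 carry an HA tag, and an anti-HA antibody then collects ribosomes with their mRNA. All 24 mice were heterozygous for the tagged Rpl22 allele, 8 weeks old and on the strain background B6.CgxB6.129. There were 4 groups of 6 mice. Mice labelled C201R with Cre were Chat+/- and C201R+/-, that is, heterozygous for Cre at the choline acetyltransferase (ChAT) locus and for the dominant C201R allele of Gars, the glycyl-tRNA synthetase gene. Wild type with Cre had Chat+/- and no C201R allele. The remaining groups, C201R and wild type without Cre, had no Cre allele, so their pulldowns measured the background. Libraries are named by mouse number, and no mouse gave more than 1. Cre from the ChAT locus acts in every cholinergic cell, so the tagged cells include cholinergic interneurons and autonomic neurons as well as motor neurons.

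Mnx1, Isl1, Isl2, Lhx3 and Lhx4 encode homeodomain transcription factors that are switched on as spinal motor neurons are born. The LIM-homeodomain proteins Isl1 and Lhx3 join the adaptor Ldb1 in a complex that directs motor neuron fate in the embryo. Foxp1 is a forkhead factor needed for limb-innervating motor columns, Aldh1a2 is not a transcription factor but the enzyme that makes retinoic acid in limb-level motor neurons, and Etv4 is an ETS factor that limb-derived GDNF induces in certain motor pools.

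Transcripts of Mnx1, Isl1, Isl2 and Lhx4 were higher with Cre in both genotypes, so the 250 bases before their start sites are shown together. They are from the RefSeq promoter table of build GRCm38.p6, in which 7 of the 8 genes were matched. Capitals mark TAAT, the core recognised by many homeodomain proteins, searched on both strands (ATTA where it lies on the other strand). The windows are chr5:29478471-29478720 on the minus strand for Mnx1, chr13:116309689-116309938 on the minus strand for Isl1, chr9:55540899-55541148 on the plus strand for Isl2 and chr1:155742028-155742277 on the minus strand for Lhx4.
Mnx1 promoter: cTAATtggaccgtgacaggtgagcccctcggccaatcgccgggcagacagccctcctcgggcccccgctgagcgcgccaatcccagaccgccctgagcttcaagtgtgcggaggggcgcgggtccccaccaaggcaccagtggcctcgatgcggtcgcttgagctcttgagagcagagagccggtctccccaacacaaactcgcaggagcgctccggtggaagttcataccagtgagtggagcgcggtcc
Isl1 promoter: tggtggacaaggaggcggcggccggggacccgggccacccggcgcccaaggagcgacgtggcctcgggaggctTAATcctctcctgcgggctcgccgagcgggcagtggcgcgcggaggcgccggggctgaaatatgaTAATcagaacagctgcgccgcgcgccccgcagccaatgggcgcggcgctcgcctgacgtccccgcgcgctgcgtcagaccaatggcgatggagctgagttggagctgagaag
Isl2 promoter: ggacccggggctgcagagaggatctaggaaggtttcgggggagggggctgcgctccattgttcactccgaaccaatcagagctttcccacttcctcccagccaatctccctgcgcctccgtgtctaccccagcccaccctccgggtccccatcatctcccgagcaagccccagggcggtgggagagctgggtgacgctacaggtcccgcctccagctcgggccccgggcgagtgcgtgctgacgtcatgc
Lhx4 promoter: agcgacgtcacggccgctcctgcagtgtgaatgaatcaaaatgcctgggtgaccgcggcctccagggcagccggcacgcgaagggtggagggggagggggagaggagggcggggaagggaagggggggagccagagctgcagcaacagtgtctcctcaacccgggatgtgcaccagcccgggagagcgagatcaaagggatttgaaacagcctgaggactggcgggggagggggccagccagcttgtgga
Mnx1 had 1 TAAT core, Isl1 had 2, and Isl2 and Lhx4 had 0. Of all 32851 windows of this length in the table, 54.9% held the core on either strand. GC content was 66.4% for Mnx1, 71.2% for Isl1, 66.8% for Isl2 and 66.0% for Lhx4, against a median of 52.4% over all windows. A match describes letters and does not show binding.

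Members of a pair with alike sequences can share reads. The longest run of identical bases between any GENCODE transcripts of Isl1 and Isl2 was 23 bases, and between those of Lhx3 and Lhx4 it was 20 bases.
Isl1 and Isl2 shared run: cggactgtgctcaacgagaagca
Lhx3 and Lhx4 shared run: gagcagctctcctccgagac

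Library totals ran from 8.90 to 28.3 M expected counts (M, mega), the number of reads that the program RSEM assigned to genes. Library numbers fell in 2 runs, called series 1 (7 libraries) and series 2 (17 libraries). What these runs stand for is not stated in the labels. Mitochondrial transcripts took 1.24 to 17.1% of counts with Cre and 35.2 to 55.5% without it. With Cre, wild-type mouse 14701-9 (17.1%) and C201R mouse 14003-1 (15.8%) stood apart from the other libraries, which had at most 6.45%. Reads of ribosomal RNA origin tend to be assigned to Gm26924, which took 7.45 to 43.3% with Cre and 1.60 to 7.60% without it. All 10 measured cholinergic genes were higher with Cre in both genotypes. Chat had a median of 59.2 CPM (counts scaled to a common library total) in wild type with Cre and 4.25 CPM without it (log2 fold change 3.59 ± 0.32 (SE), adjusted p = 1.9e-07). The summed level of 12 oligodendrocyte markers was 531 to 1162 CPM with Cre and 5144 to 9183 CPM without it over both genotypes, and that of 11 astrocyte markers was 311 to 565 and 2173 to 2978 CPM.

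**Figure D1:**
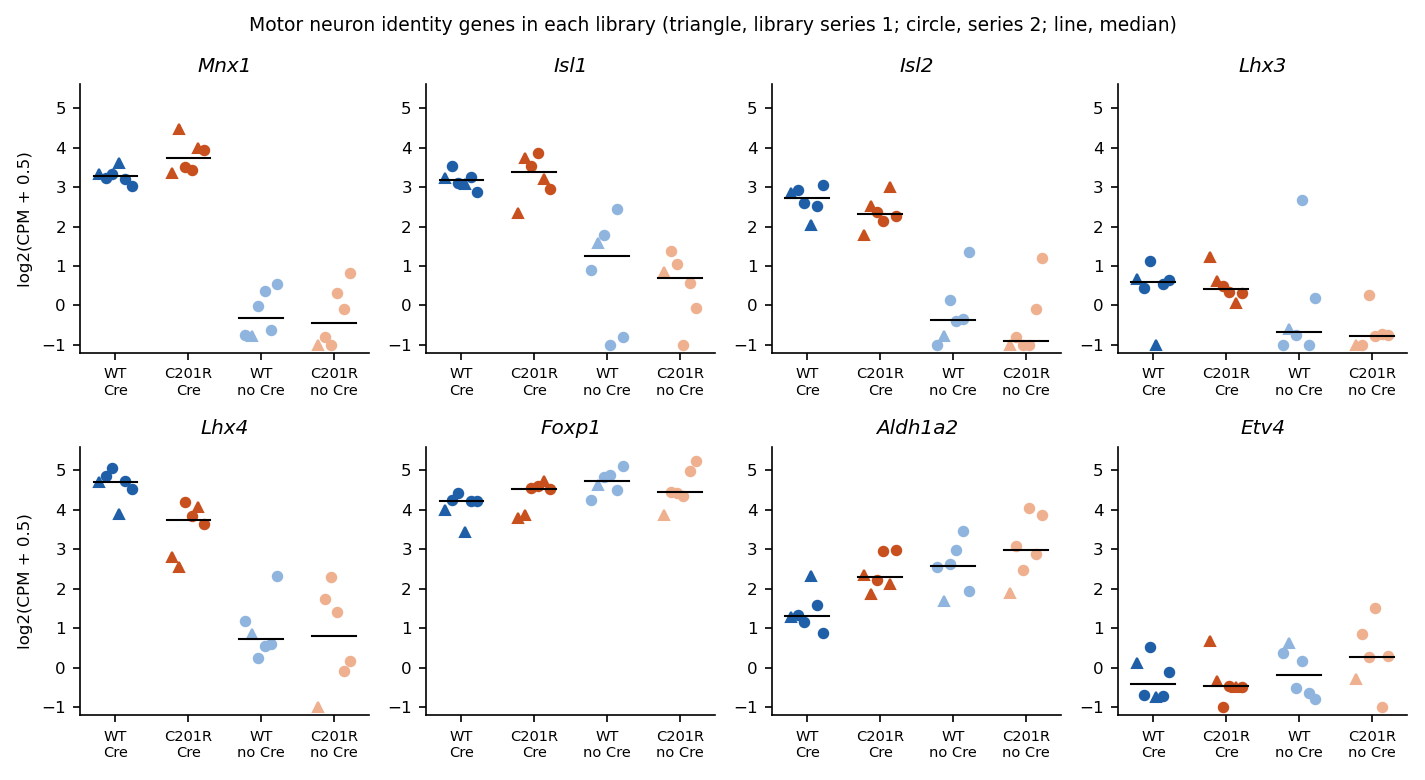
Level of each identity gene in each of the 24 libraries, as log2(CPM + 0.5), by group; WT, wild type. Triangles are library series 1, circles are series 2 and lines are group medians. Mnx1, Isl1, Isl2 and Lhx4 lie higher with Cre than without it in both genotypes, with no overlap between those groups.

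Mnx1, Isl1, Isl2 and Lhx4 were higher in pulldowns with Cre in both genotypes, by 3.80 to 30.1 fold. Foxp1 and Aldh1a2 were lower with Cre in wild type, and neither passed the test in C201R. Lhx3 and Etv4 were near the limit of detection. Per gene, CPM takes library totals scaled by TMM, a method that sets the bulk of genes level, and a gene is called where its edgeR adjusted p is under 0.05. In bulk pulldowns, fewer cells of a type and less RNA per cell cannot be told apart.

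Mnx1, which keeps the motor neuron programme apart from that of interneurons, ran from 7.60 to 11.7 CPM (median 9.23) in wild type with Cre. Without Cre it ran from 0.0810 to 0.954 CPM (median 0.320). In C201R the ranges were 9.78 to 21.7 CPM (median 12.9) with Cre and 0 to 1.27 CPM (median 0.254) without it. Every library with Cre was above every library without Cre. Mnx1 had the highest fitted enrichment of the identity genes. Its log2 fold change was 4.29 ± 0.52 in wild type (SE, n = 6 against 6, edgeR adjusted p = 4.1e-06) and 4.91 ± 0.64 in C201R (adjusted p = 5.7e-06). Differences in enrichment between genes were not tested. With a replicate block, made from the first part of the mouse number, Isl2 in C201R (7.065) was above Mnx1 (5.8).

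Lhx4, the LIM-homeodomain paralog of Lhx3, ran from 14.5 to 32.8 CPM (median 25.8) in wild type with Cre and from 0.693 to 4.53 CPM (median 1.16) without it. In C201R it ran from 5.33 to 18.0 CPM (median 12.95) with Cre and from 0 to 4.38 CPM (median 1.40) without it. The groups with and without Cre did not overlap in either genotype. The log2 fold change was 3.77 ± 0.39 in wild type (edgeR adjusted p = 8.0e-07) and 3.32 ± 0.64 in C201R (adjusted p = 3.5e-04).

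Isl2, a marker of somatic motor neurons as they mature, ran from 3.62 to 7.75 CPM (median 6.12) in wild type with Cre and from 0 to 2.07 CPM (median 0.279) without it. In C201R it ran from 2.95 to 7.57 CPM (median 4.49) with Cre and from 0 to 1.81 CPM (median 0.0361) without it. Again the groups were apart in both genotypes, by 3.47 ± 0.69 on the log2 scale in wild type (edgeR adjusted p = 4.9e-04) and 3.64 ± 0.90 in C201R (adjusted p = 0.0025). In C201R without Cre, 3 of 6 libraries had 0 Isl2 counts, which allows up to 0.526 CPM in mouse 14004-7 (3 counts) and less in the others.

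Isl1, also made by other spinal and sensory neurons, had a higher background than Isl2. It ran from 6.80 to 11.1 CPM (median 8.496) in wild type with Cre and from 0 to 4.95 CPM (median 1.94) without it. In C201R it ran from 4.61 to 13.9 CPM (median 9.94) with Cre and from 0 to 2.09 CPM (median 1.13) without it. The libraries without Cre disagreed among themselves: wild-type mouse 14702-4 and C201R mouse 14004-8 had 0 Isl1 counts, and wild-type mouse 14702-5 had 34. The log2 fold change was 1.93 ± 0.75 in wild type (edgeR adjusted p = 0.039) and 3.27 ± 0.59 in C201R (adjusted p = 1.7e-04). The wild-type call for Isl1 was lost, with an adjusted p of 0.052 to 0.076, when any of 7 libraries was left out: wild type with Cre 14002-6, 14004-6, 14702-3, 14703-5 or 14004-3, or wild type without Cre 14004-4 or 14701-1. It was also lost with a replicate block (2.04, adjusted p = 0.14), made from the first part of the mouse number, with no filter (2.14, adjusted p = 0.074) and in series 2 only (2.07, adjusted p = 0.067). Summed levels of 12 dorsal root ganglion markers, none at 0 in a whole group, were 12.2 to 51.7 CPM in wild type without Cre and 3.10 to 22.7 CPM with it. In C201R they were 5.92 to 61.0 and 6.04 to 10.2 CPM, and their part in the Isl1 background was not tested.

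Beside all genes, 4 of 7 identity genes tested in wild type were higher with Cre where 27.7% of 14264 genes were, and 2 were lower where 32.8% were. In C201R, 4 of 6 tested were higher where 30.5% of 14335 genes were, and 0 were lower where 26.3% were. Etv4, and in C201R also Lhx3, did not pass the filter on low counts, and Mnx1 and Isl2 passed it through the libraries with Cre, since both failed it where only libraries without Cre were fitted. These counts therefore describe the genes that passed and are no measure of all 8. Over all genes the median log2 fold change was -0.10 in wild type and 0.06 in C201R. The split over all genes depends on scaling. With library totals in place of TMM, 6881 genes were higher and 2441 lower in wild type, against 3955 and 4682. In C201R the counts were 5657 and 2284, against 4370 and 3775. The calls of Mnx1, Isl1, Isl2 and Lhx4 as higher held under that scaling in both genotypes. Groups with and without Cre that did not overlap were not counted over all genes, so that trait is not shown to be particular to these 4. Chat and Gars had no overlap in either genotype, and Rpl22 had none in wild type, where it was not called.

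**Figure D2:**
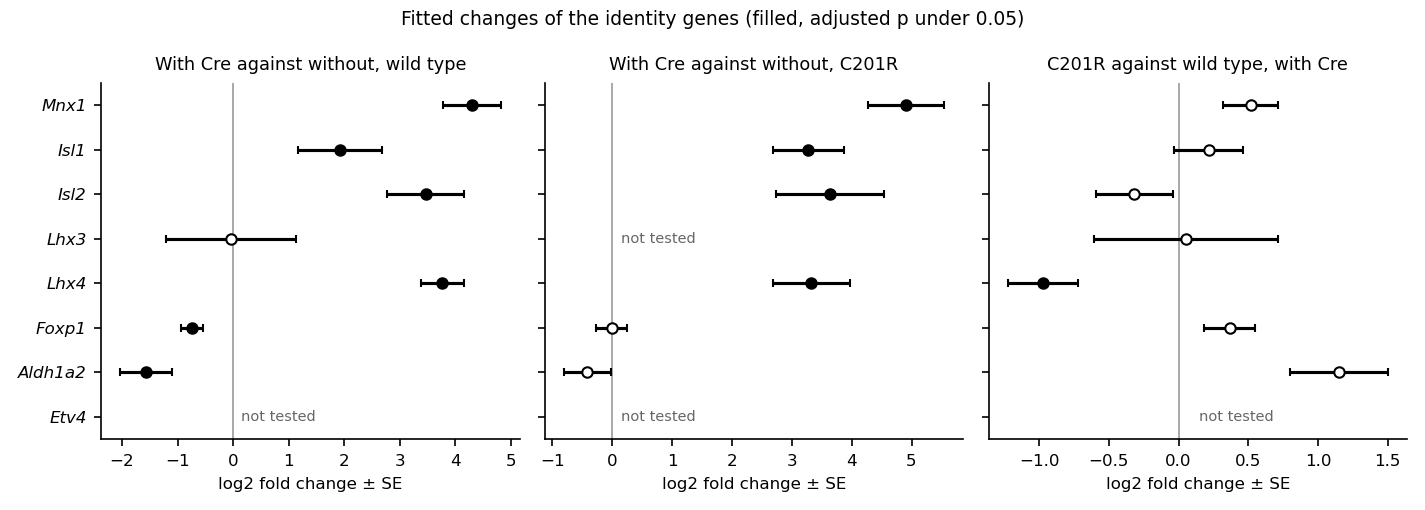
Fitted log2 fold change with its SE for each identity gene (rows) in 3 comparisons (panels), with filled points for adjusted p under 0.05. Mnx1 has the largest fold change with Cre in both genotypes, and Lhx4 is the only filled point between genotypes.

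Lhx3, which with Isl1 sets motor neuron identity in the embryo, had a median of 0.998 CPM in wild type with Cre and 0.839 CPM in C201R with Cre. Counts of Lhx3 summed to 196 in wild type with Cre and 112 in C201R with Cre, and to 77 and 7 without Cre. Of the 77, 66 came from a single library, wild-type mouse 14702-4 (5.85 CPM), while the other 5 held 0 to 0.636 CPM. The wild-type log2 fold change was -0.04 ± 1.17 (edgeR adjusted p = 0.98), and 2.195 (adjusted p = 0.06) without mouse 14702-4. With limma-voom in place of edgeR the value was 2.57, and Lhx3 was called higher with Cre (adjusted p = 0.012). In C201R, Lhx3 did not pass the filter on low counts and was not tested; its levels were 0.545 to 1.85 CPM with Cre and 0 to 0.701 CPM without it. Lhx3 and its paralog Lhx4 therefore stood far apart in counts: with Cre, Lhx4 summed to 4974 in wild type and 1787 in C201R.

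Foxp1 was read in every library of all groups, with 10.3 to 21.02 CPM (median 18.1) in wild type with Cre and 18.4 to 34.0 CPM (median 26.3) without it. In C201R it had 13.5 to 26.0 CPM (median 22.7) with Cre and 14.1 to 37.0 CPM (median 21.2) without it. Foxp1 was lower with Cre in wild type, by -0.74 ± 0.19 on the log2 scale (edgeR adjusted p = 0.0036), although the groups overlapped. The wild-type call was lost with the replicate block (-0.72, adjusted p = 0.06) and with no filter on low counts (-0.54, adjusted p = 0.065). It was not called in C201R (-0.01 ± 0.26, adjusted p = 0.97), where library totals gave 0.62 (adjusted p = 0.17). The wild-type direction flipped under library totals (0.19, adjusted p = 0.58), a scaling that moved the median of all genes from -0.10 to 0.84, so Foxp1 stayed lower than that median.

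Aldh1a2 ran from 1.33 to 4.48 CPM (median 1.97) in wild type with Cre and from 2.76 to 10.5 CPM (median 5.52) without it. In C201R it ran from 3.13 to 7.34 CPM (median 4.39) with Cre and from 3.21 to 15.9 CPM (median 7.40) without it. Libraries with and without Cre overlapped in both genotypes. Aldh1a2 was lower with Cre in wild type (-1.57 ± 0.47, edgeR adjusted p = 0.0085) and not called in C201R (-0.42 ± 0.39, adjusted p = 0.37). Under library totals the wild-type value was -0.57 (adjusted p = 0.24), with the replicate block it was -1.12 (adjusted p = 0.14), and that of C201R under library totals was 0.10 (adjusted p = 0.88). The paralog Aldh1a1 was lower with Cre as well, by -2.20 ± 0.18 in wild type (adjusted p = 9.9e-08).

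Etv4 had the fewest counts of the 8 with Cre, 73 over the 6 wild-type libraries and 28 over those of C201R. Without Cre it had 32 and 60 counts, beside 29 and 28 for Mnx1. It did not pass the filter in any comparison, so no test was made. No library of any group exceeded 2.34 CPM, and the ranges of the 4 groups overlapped. The related ETS gene Etv5 was higher with Cre in wild type, with medians of 33.4 and 12.6 CPM (1.19 ± 0.22, adjusted p = 2.6e-04).

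Levels of different genes are compared per transcript length, in the deposited TPM (transcripts scaled to a fixed total per library). In wild type with Cre the medians of 6 libraries were 19.7 TPM for Foxp1, 15.1 for Isl1, 13.9 for Lhx4, 11.2 for Mnx1, 9.42 for Isl2, 2.25 for Aldh1a2, 1.63 for Lhx3 and 0.50 for Etv4. Foxp1 ranked first in 5 of the 6 libraries. Every pair of neighbours in this order had overlapping ranges. Isl2 ran down to 2.16 TPM, in mouse 14701-9, within the 1.67 to 3.33 TPM of Aldh1a2. In C201R with Cre the medians were 12.1 TPM for Mnx1, 11.1 for Isl1, 10.6 for Foxp1, 5.50 for Isl2, 4.78 for Lhx4, 3.89 for Aldh1a2, 0.690 for Lhx3 and 0.435 for Etv4. Neighbours overlapped here too, and Lhx4 stood behind Foxp1 and Isl1 in wild type, and behind these, Mnx1 and Isl2 in C201R. C201R mouse 14003-1, which had the highest Gm26924 share, had the lowest TPM of the 12 libraries with Cre for Foxp1, Isl1, Lhx4, Mnx1 and Isl2.

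**Figure D3:**
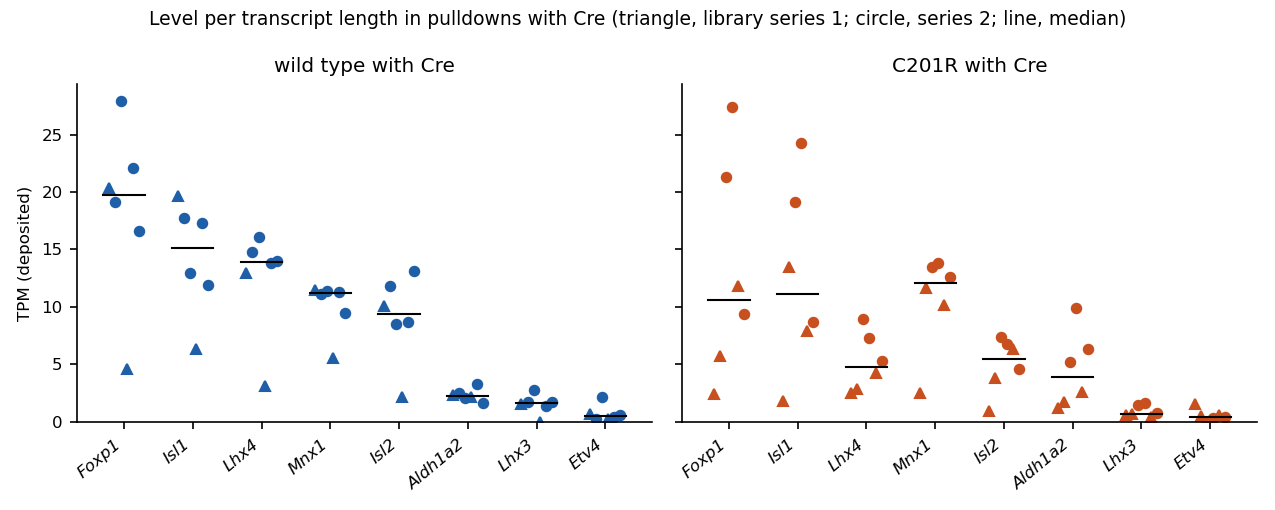
Deposited TPM of the identity genes in libraries with Cre, ordered by the wild-type median, with wild type on the left and C201R on the right. Triangles are library series 1, circles series 2 and lines medians. The Lhx4 median is 13.9 TPM in wild type and 4.78 TPM in C201R. TPM is not scaled by TMM, so the panels do not measure a change between genotypes. The Foxp1 median is also lower in C201R in TPM (19.7 and 10.6), but in CPM it is 18.1 in wild type and 22.7 in C201R.

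The effect of the C201R allele in tagged cells was asked by comparing C201R with wild type, both with Cre. Lhx4 was lower in C201R and was the only called gene of 7 tested. Aldh1a2 and Mnx1 had higher medians in C201R and did not pass the test, and Isl1, Isl2, Lhx3 and Foxp1 did not either. Over all 14634 genes, 1.82% were called lower and 2.29% higher, against 1 and 0 of the 7. That was 335 higher and 266 lower genes, and 24 and 8 under library totals, which moved the median of all genes from -0.01 to -0.26. These are the same wild-type and C201R libraries with Cre as in the enrichment comparisons.

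Lhx4 had medians of 25.8 CPM in wild type and 12.95 CPM in C201R, with ranges of 14.5 to 32.8 and 5.33 to 18.0 CPM. The log2 fold change was -0.97 ± 0.25 (edgeR adjusted p = 0.044), or 1.96 fold lower. The overlap came from wild-type mouse 14701-9, at 14.5 CPM; the other 5 wild-type libraries, from 22.8 CPM up, lay above all 6 of C201R. Within series 2 the groups did not overlap, with 22.8 to 32.8 CPM in 4 wild-type libraries and 11.99 to 18.0 CPM in 3 of C201R (-0.90, adjusted p = 0.0043). Within series 1, 2 wild-type libraries had 14.5 and 25.7 CPM and 3 of C201R had 5.33, 6.46 and 16.3 CPM. Ratios of Lhx4 counts to those of Isl1, Mnx1 and Isl2 within a library need no scaling, and were chosen after the values were seen. Lhx4 counts per Isl1 count ran from 1.83 to 4.09 (median 2.88) in wild type and from 0.413 to 1.88 (median 1.51) in C201R. Lhx4 counts per Mnx1 count ran from 1.24 to 3.43 (median 2.99) and from 0.245 to 1.65 (median 0.933). In these ratios the only wild-type library within the C201R range was mouse 14701-9. Lhx4 counts per Isl2 count overlapped more, at 2.94 to 5.97 (median 4.02) in wild type and 1.01 to 3.90 (median 2.47) in C201R. There wild-type mice 14002-6 (3.81) and 14703-5 (2.94) lay within the C201R range, and mouse 14701-9 (4.0) lay above it.

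The call of Lhx4 was close to the threshold. It was lost, with an adjusted p of 0.056 to 0.19, when any of 9 libraries was left out: C201R 14004-2, 14003-4, 14004-5 or 14703-4, or wild type 14002-6, 14004-6, 14702-3, 14703-5 or 14004-3. The fold change stayed between -1.19 and -0.82. With the replicate block it was -0.67 (adjusted p = 0.36), under library totals -1.22 (adjusted p = 0.33), and without the term for library series -1.04 (adjusted p = 0.076). The call held under DESeq2 (-0.96, adjusted p = 0.0063), limma-voom (-0.865, adjusted p = 0.0038) and no filter (-1.0, adjusted p = 0.019). It also held with mice 14003-1 and 14701-9 both left out (-0.98, adjusted p = 0.014), which had the highest mitochondrial shares with Cre. Over all genes, DESeq2 called 1315, limma-voom 1971, no filter 489 and the fit without both mice 1950, against 601 by edgeR with all 12 libraries. The share of Gm26924 differed among the libraries with Cre, and its part in the Lhx4 result was not tested beyond the covariate fit. C201R mice 14003-4 and 14003-1, the lowest in Lhx4, had shares of 36.9% and 43.3%, and wild-type mouse 14701-9 had 30.8%. C201R mouse 14701-5, with 32.9%, had 16.3 CPM of Lhx4, more than C201R mouse 14703-4, with 20.9% and 11.99 CPM. With this share as a covariate, chosen after the data were seen, the Lhx4 value was -0.62 (adjusted p = 0.52). C201R mice 14004-2 and 14004-5, with shares of 10.5 and 8.01%, within the 7.45 to 11.9% of the other wild-type libraries, had 18.0 and 13.9 CPM of Lhx4.

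**Figure D4:**
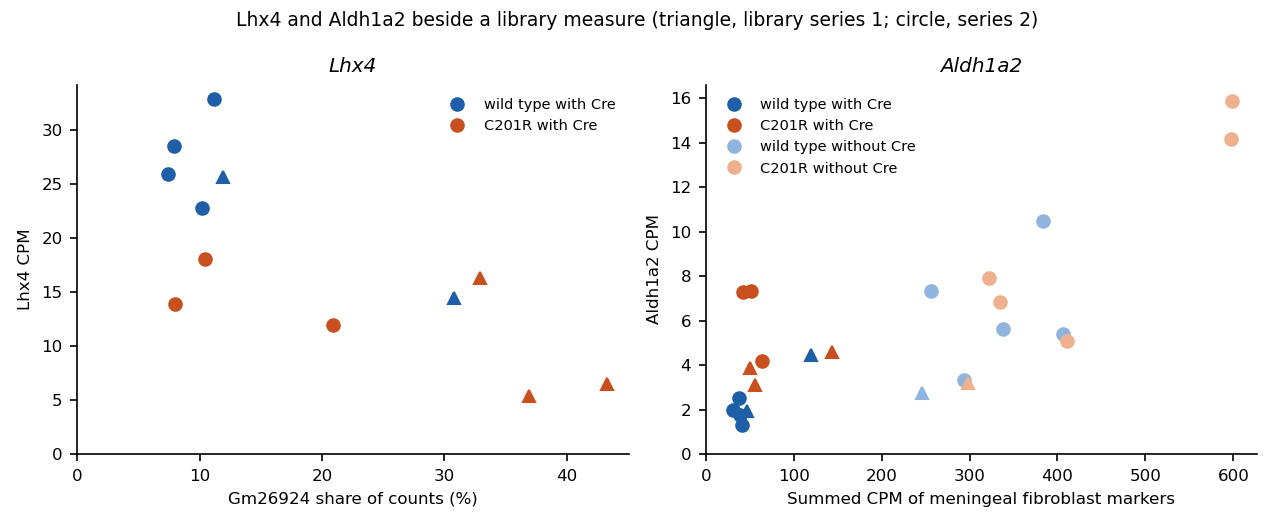
Left, Lhx4 CPM against the share of counts taken by Gm26924 in the 12 libraries with Cre. Right, Aldh1a2 CPM against the summed CPM of 12 meningeal fibroblast markers in all 24 libraries. Points are libraries, triangles series 1 and circles series 2. C201R mice 14004-2 and 14004-5, with shares of 10.5 and 8.01%, lie below all 5 wild-type libraries of similar share in Lhx4. With the share as a covariate, the Lhx4 value between genotypes was -0.62 (edgeR adjusted p = 0.52). The part of the share in the Lhx4 result was not tested further.

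Aldh1a2 was not called between genotypes (1.15 ± 0.35, edgeR adjusted p = 0.082), with medians of 1.97 CPM in wild type and 4.39 CPM in C201R. In series 2 the groups did not overlap: 1.33 to 2.53 CPM in 4 wild-type libraries and 4.17 to 7.34 CPM in 3 of C201R (1.72, adjusted p = 0.0014). In series 1 they overlapped, at 1.94 and 4.48 CPM against 3.13 to 4.61 CPM. Aldh1a2 was called where wild-type mouse 14701-9 was left out (1.50, adjusted p = 0.013). It was also called with mice 14003-1 and 14701-9 both left out (1.50, adjusted p = 0.0027), under DESeq2 (1.17, adjusted p = 0.015) and under limma-voom (1.44, adjusted p = 0.0012). These settings also called more of all genes, with 1950 without both mice, 1315 under DESeq2 and 1971 under limma-voom. Leaving out mouse 14701-9 gave 709, and series 2 only gave 1370 of 15278, against 601 by edgeR with all 12 libraries. Meningeal cells also make Aldh1a2, and the sum of 12 meningeal fibroblast markers was 30.6 to 120 CPM in wild type with Cre, 42.0 to 143 CPM in C201R with Cre, 246 to 406 CPM in wild type without Cre and 299 to 599 CPM in C201R without Cre; none was at 0 in a whole group. Among libraries without Cre, C201R mice 14004-8 and 14702-9 were highest in both, with 15.9 and 14.2 CPM of Aldh1a2 beside 599 and 597 CPM of the markers. With Cre, C201R mice 14703-4 and 14004-5 were highest in Aldh1a2, at 7.34 and 7.30 CPM, with marker sums of 51.4 and 42.0 CPM. Wild-type mouse 14701-9 was highest of its group in both, with 4.48 CPM of Aldh1a2 and 120 CPM of the markers. C201R mouse 14003-1 had the highest marker sum with Cre, 143 CPM, and 4.61 CPM of Aldh1a2. The part of these cells in the Aldh1a2 values was not tested.

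Mnx1 had medians of 9.23 CPM in wild type and 12.9 CPM in C201R, and the test did not call it (0.52 ± 0.20, edgeR adjusted p = 0.17). In series 2 the ranges were 7.60 to 9.59 and 10.3 to 14.8 CPM, with no overlap and no call (0.47, adjusted p = 0.11). Mnx1 was called without C201R mouse 14003-1 (0.59, adjusted p = 0.048), and with mice 14003-1 and 14701-9 both left out (0.62, adjusted p = 0.031). Over all genes these fits called 936 and 1950, against 601 with all 12 libraries. Foxp1 (0.37 ± 0.18, adjusted p = 0.29), Isl2 (-0.32 ± 0.28, adjusted p = 0.59), Isl1 (0.22 ± 0.25, adjusted p = 0.69) and Lhx3 (0.05 ± 0.66, adjusted p = 0.98) had overlapping groups over all 12 libraries. In series 2, Isl1 and Lhx3 overlapped as well. Foxp1 (0.285, edgeR adjusted p = 0.19) and Isl2 (-0.56, adjusted p = 0.12) did not overlap there and were not called. Lack of overlap in series 2, at 4 against 3 libraries, was thus shared by Lhx4, Aldh1a2, Mnx1, Foxp1 and Isl2. It was not counted over all genes, so it is not shown to be particular to any of them. The SE of Lhx3 was the widest of the 7, at 112 and 196 counts over 6 libraries.

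Without Cre, 4 identity genes passed the filter and 0 were called, and 0.0% of 14400 genes were called by edgeR (455 at an unadjusted p under 0.05; DESeq2 called 2 and limma-voom 0). Isl1 had a log2 fold change of -0.90 ± 0.98, Lhx4 of -0.20 ± 0.77, Foxp1 of -0.14 ± 0.23 and Aldh1a2 of 0.54 ± 0.37, each with an adjusted p of 1. Mnx1, Isl2, Lhx3 and Etv4 were too low to test. Whether the genotype difference changed with Cre was tested as an interaction over all 24 libraries, which called 0.13% of 16109 genes. It called 0 of 7 identity genes, of which Mnx1 (0.54 ± 0.79), Isl1 (1.06 ± 0.95), Isl2 (0.26 ± 1.07), Lhx4 (-0.87 ± 0.70), Foxp1 (0.50 ± 0.31) and Aldh1a2 (0.51 ± 0.55) had adjusted p from 0.67 to 0.96. Lhx3 had the largest value, 3.19 ± 1.57 (adjusted p = 0.55), with the 66 counts of mouse 14702-4 in its wild-type background. A difference in the Lhx4 effect between pulldowns with and without Cre was therefore not shown.

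**Figure D5:**
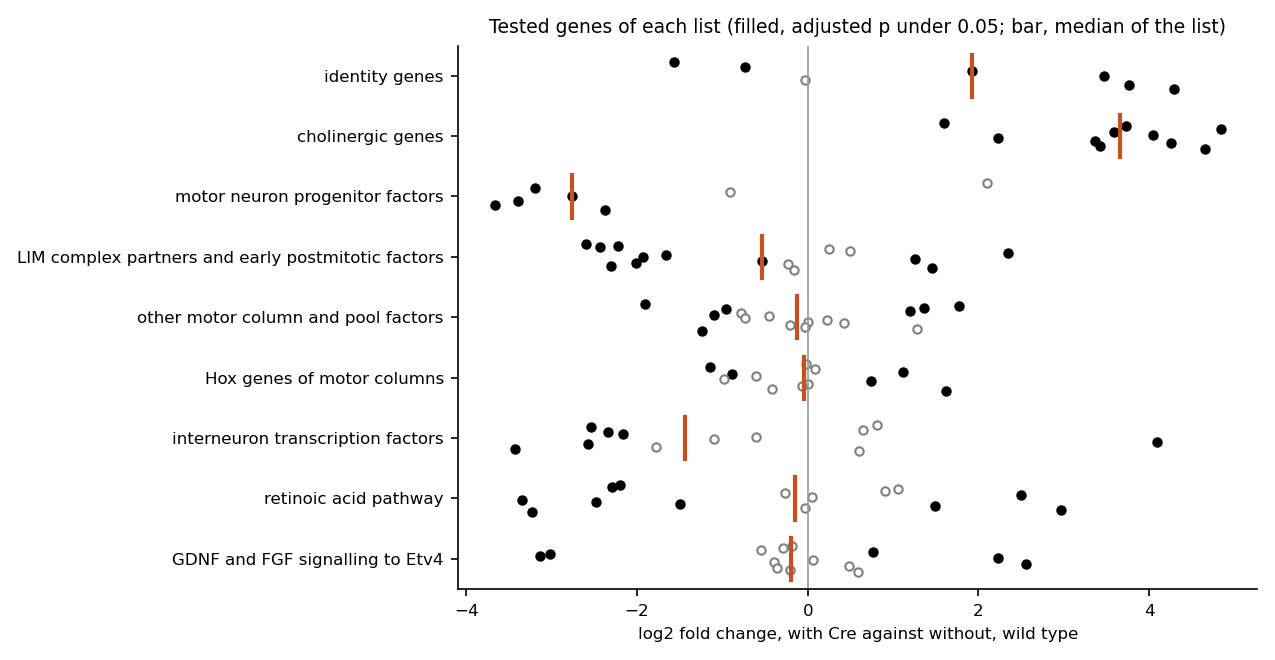
Log2 fold change with Cre against without Cre in wild type for every tested gene of the identity genes and 8 lists of related genes (rows). Filled points have adjusted p under 0.05 and bars are list medians. Genes in the row of cholinergic genes, which also holds motor neuron markers, all lie above 0, and progenitor factors have a median of -2.76.

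Genes that act before, with and beside the identity factors were taken from 7 lists. Their counts are to be read beside all 14264 genes tested for Cre in wild type. Of those, 27.7% were called higher and 32.8% lower. In C201R the shares were 30.5% and 26.3% of 14335 genes. Counts between genotypes with Cre are to be read beside 2.29% higher and 1.82% lower of 14634 genes. Of 7 tested genes on a list of motor neuron progenitor factors, 5 were lower and 0 higher with Cre in wild type. These were Olig1 (-2.76 ± 0.25), Olig2 (-3.39 ± 0.40), both also made by oligodendrocyte lineage cells, Pax6 (-3.67 ± 0.54), Nkx2-2 (-3.20 ± 0.69) and Sox2 (-2.37 ± 0.52), with adjusted p of 9.2e-04 or less. Markers of oligodendrocyte precursors and astrocytes had list medians of -2.83 and -3.16. The part of those cells in the values of this list was not tested. In C201R, 6 of 8 were lower and Irx3, named after its value was seen, was higher (2.66 ± 0.63, adjusted p = 0.0016).

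Of 15 partners of LIM-homeodomain proteins and early postmitotic factors tested in wild type, 8 were lower and 3 higher with Cre. The early neuronal factors Ebf3 (-2.44 ± 0.18, adjusted p = 3.7e-08), Ebf1 (-2.60 ± 0.25, adjusted p = 4.1e-07) and Onecut2 (-2.01 ± 0.24, adjusted p = 3.5e-06) had the smallest p. The higher genes, named after their values were seen, were the LIM-only genes Lmo4 (1.26 ± 0.18, adjusted p = 2.5e-05) and Lmo1 (2.35 ± 0.69, adjusted p = 0.0077), whose proteins bind Ldb1, and Ssbp3 (1.45 ± 0.24, adjusted p = 9.2e-05), which binds it as well. In C201R, 6 were lower and these 3 higher. The list had 0 calls of 16 tested between genotypes with Cre.

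Other factors of motor columns and pools had 3 higher and 4 lower with Cre of 16 tested in wild type. Both counts lay below the shares of all genes, 27.7% and 32.8%. The list median log2 fold change was -0.12, against -0.10 over all genes, so the list as a whole did not stand out. The estrogen-related receptor gene Esrrg (1.37 ± 0.15, adjusted p = 1.8e-06) was higher, as were Esrrb and Etv5, both named after their values were seen. Zfhx3 (-1.24 ± 0.15, adjusted p = 3.2e-06) and Etv1 (-0.95 ± 0.17, adjusted p = 1.9e-04) were lower. Between genotypes with Cre, 2 of 17 tested were lower in C201R and 0 higher, among them Etv1 (-0.80 ± 0.19, adjusted p = 0.034). Median Etv1 was 23.6 CPM in wild type and 10.4 CPM in C201R. Of 12 Hox genes that mark levels of the cord, Hoxd9 (1.62 ± 0.30, adjusted p = 2.2e-04), Hoxc10 (1.11 ± 0.25, adjusted p = 0.0014) and Hoxc8 (0.74 ± 0.19, adjusted p = 0.0032) were higher with Cre in wild type. The more anterior genes Hoxa5 (-1.14 ± 0.31, adjusted p = 0.0042) and Hoxc4 (-0.89 ± 0.29, adjusted p = 0.015) were lower. The Hox counts, 3 and 2 of 12, also lay below the shares of all genes. None of the 12 was called between genotypes with Cre.

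Of 12 interneuron transcription factors tested in wild type, 5 were lower with Cre and 1 was higher. The lower genes included Foxp2 (-2.54 ± 0.46, adjusted p = 1.8e-04), Pou4f1 (-2.58 ± 0.50, adjusted p = 3.7e-04) and Tfap2b (-3.43 ± 0.67, adjusted p = 3.7e-04). In C201R, 5 of 10 tested were lower and 0 higher.

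Of 14 retinoic acid pathway genes tested in wild type, 3 were higher and 6 lower with Cre, where 27.7% and 32.8% of all genes were. The receptor genes Rara (2.50 ± 0.45, adjusted p = 1.8e-04), Rxra (1.49 ± 0.27, adjusted p = 2.3e-04) and Rxrg (2.97 ± 0.64, adjusted p = 8.3e-04) were the 3 higher genes, Rxrg being named after its value was seen. The 6 lower genes included the synthesis enzyme genes Aldh1a1 and Aldh1a3 and the retinol-binding protein gene Rbp4, of which Aldh1a3 and Rbp4 were named after their values were seen. In C201R, 4 were higher and 3 lower of 11. Between genotypes with Cre the 1 call of 14 was Dhrs3, a retinaldehyde reductase gene, with medians of 5.98 CPM in wild type and 14.7 CPM in C201R (1.22 ± 0.25, adjusted p = 0.014).

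Genes that carry the GDNF and FGF signals which induce Etv4 had 3 higher and 2 lower of 14 tested in wild type. Both counts lay below the 27.7% and 32.8% of all genes. The GDNF receptor genes Ret (222.7 CPM with Cre, 27.6 CPM without it; 2.56 ± 0.21, adjusted p = 9.9e-08) and Gfra1 (2.22 ± 0.23, adjusted p = 9.0e-07) and the FGF receptor gene Fgfr1 (0.77 ± 0.19, adjusted p = 0.0026) were higher. Fgfr2 (-3.02 ± 0.22, adjusted p = 3.9e-08) and Fgfr3 (-3.14 ± 0.32, adjusted p = 6.6e-07) were lower. The same 5 genes were called in the same directions in C201R. None of 15 was called between genotypes with Cre, where Gfra1 had -0.69 ± 0.23 (adjusted p = 0.11).

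Of the 10 markers of cholinergic and motor neurons, 3 were lower in C201R with Cre and 0 higher. Over all 14634 genes, 1.82% were lower and 2.29% higher. These were Chodl (-1.02 ± 0.14, adjusted p = 6.3e-04) and the peptide genes Calca (-1.47 ± 0.24, adjusted p = 0.0030) and Calcb (-0.88 ± 0.18, adjusted p = 0.012). Chat (0.24 ± 0.17, adjusted p = 0.51) and the choline transporter gene Slc5a7 (0.12 ± 0.20, adjusted p = 0.81) were not called. Gars itself was higher (0.80 ± 0.12, adjusted p = 0.0020), and its counts do not tell the alleles apart.

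Genes with the most alike pattern were taken by Pearson correlation over all 24 libraries, among 11268 genes. These values describe libraries that share Cre groups and depth. For Mnx1 they were Ahsa1 (r = 0.983), Dynlrb1 (0.982) and Mapre3 (0.981), and for Lhx4 they were Arl16 (0.970), Stk32a (0.954) and Phtf1 (0.953). For Isl2 they were Cd59a (0.963), Gna14 (0.962) and Ifitm10 (0.962), and for Isl1 Pard6a (0.890), Srd5a3 (0.889) and Kansl2 (0.881). Foxp1 was most alike Hspa4l (0.840), Taf2 (0.827) and Ei24 (0.796), and Lhx3 was most alike Alg8 (0.831), Mark4 (0.813) and Sharpin (0.801). For Aldh1a2 they were Cdkn1b (0.788), Mgp (0.742) and Lhfpl2 (0.737), and for Etv4 Kdm4b (0.707), Pamr1 (0.641) and Txnip (0.606).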

How the data were processed

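The authors deposited 1 table per library with expected counts and TPM per gene. RSEM 1.2.12 and Bowtie2 2.2.0 are named in the submitters' processing notes; the genome build was not given in the sources used here. Expected counts deposited by the authors divide reads shared by alike genes, and they were rounded to whole numbers. The deposited TPM are scaled per length by the authors' program and were described with no test. Each comparison was fitted on its 12 libraries (the interaction on 24) with edgeR 4.0.16 in R 4.3.3: filterByExpr, TMM scaling and a robust quasi-likelihood test with library series as a term. Adjusted p is by Benjamini-Hochberg over all genes tested, called under 0.05. SE was obtained from each log2 fold change and its F statistic (size over root F). Per-library CPM is scaled over all 24 libraries, and fold changes come from the fits. The test was tested on simulated data. Likeness used log2(CPM + 0.5) over genes of at least 2 CPM on average, without predicted genes, clones, pseudogenes, small RNAs and sex-linked markers. A count of 0 was taken to allow 3 counts, for counting error only.

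The identity genes and 18 gene lists were chosen with earlier results of these data known. Named were all identity genes, Chat, Slc5a7, Rpl22, Gars and Gm26924, up to 3 genes of smallest p per list, all called genes of lists with 5 or fewer calls, and the 3 genes most like each identity gene. Alternatives were RLE scaling, library totals, no filter, DESeq2 1.42.0, limma-voom (limma 3.58.1) with quality weights, no covariate, a replicate block from the first part of the mouse number, series 2 only, leaving out mice 14003-1 and 14701-9 together, and fits lacking 1 library at a time. The Gm26924 share as a covariate was added after seeing the data. Each mouse gave 1 library. Some genes of the lists are not reported here by name.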

Additional observations from a re-analysis of the deposited data

Results flagged for a closer look

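Among 32 sets of 6 libraries (8 genes in 4 groups), Dixon's gap test on log2(CPM + 0.5) picked 3, all of Lhx3, where chance picks about 1 in 20. Lhx3 had 0 CPM in wild type with Cre 14701-9, where the other 5 libraries had 0.866 to 1.68 CPM (gap over range 0.682). A count of 0 there allows up to 0.286 CPM. In wild type without Cre 14702-4 Lhx3 had 5.85 CPM, where the others had 0 to 0.636 CPM (gap over range 0.677). In C201R without Cre 14004-7 it had 0.701 CPM, from 4 counts, where the others had 0 to 0.109 CPM (gap over range 0.775).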

How the results depend on the processing

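Of 282 values of identity genes under other alternatives, 245 kept direction and side of the threshold, 11 lost the call, 5 gained it and 21 changed sign. Of 456 that left out 1 library, the counts were 422, 16, 2 and 16. A value that changed sign was counted only as such, also where its call changed. In wild type, 6 identity genes were called with Cre, 3 with the replicate block (Mnx1, Isl2 and Lhx4) and 5 to 6 with 1 library left out. The count was 7 under limma-voom, which added Lhx3, 4 under library totals, 4 with no filter and 5 in series 2 only. In C201R the count was 4 throughout, and 4 to 5 with 1 library left out. Between genotypes with Cre it was 1. It was 0 under library totals, with no covariate, with the replicate block and with the Gm26924 covariate. It was 2 under DESeq2, limma-voom and series 2 only, 3 with both mice left out, and 0 to 2 with 1 library left out. The cause of these shifts was not tested.

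Values that changed sign were as follows. Of them the wild-type value of Foxp1 was a called -0.74. The limma-voom value of Lhx3 in wild type was itself called (adjusted p = 0.012). For Lhx3 in wild type with Cre against without they were 0.91 under library totals, 0.19 with no filter, 0.045 under DESeq2, 2.57 under limma-voom, 0.11 with the replicate block, 0.052 with both mice left out and -0.54 to 2.195 with 1 library left out. For Foxp1 library totals gave 0.19 in wild type and 0.62 in C201R, where no filter gave 0.064 and leaving out 1 library gave -0.24 to 0.056. Aldh1a2 in C201R was 0.10 under library totals. Between genotypes with Cre, Lhx3 was -0.38 under library totals, -0.24 under limma-voom, -0.48 in series 2 only, -0.46 with both mice left out, -0.11 with the Gm26924 covariate and -0.34 to 0.25 with 1 library left out. Without Cre, Lhx4 was 0.036 with no covariate, 0.23 in series 2 only and -0.68 to 0.31 with 1 library left out, and Foxp1 was 0.23 with the replicate block. In the interaction, Lhx3 was -0.12 under limma-voom, and Isl2 was -0.022 with the replicate block, -0.13 in series 2 only and -0.96 to 2.09 with 1 library left out.

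Over all genes between genotypes with Cre, 601 were called. The count was 32 under library totals, 1315 under DESeq2, 1971 under limma-voom, 291 with no covariate, 75 with the replicate block, 1370 in series 2 only, 1950 with both mice left out, 122 with the Gm26924 covariate and 170 to 936 with 1 library left out. The interaction called 21, and 115 under DESeq2, 67 under limma-voom, 1 under library totals, 6 with the replicate block and 43 with both mice left out. Without Cre 0 were called, and 6 with no filter, 2 under DESeq2 and 1 with the replicate block. Low counts limit Lhx3 and Etv4. The Gm26924 covariate was chosen after seeing the data. Leaving out both mice could not apply to the comparison without Cre, which holds neither.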
